A study of Mus musculus with 2 samples.

Results

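The 9 genes described here, Cd79a, Cd79b, Ms4a1, Fcer2a, Cr2, Vpreb3, Cd24a, Pax5 and Ebf1, are genes of B cell identity and maturation. They were chosen by name among the 13528 genes of the filtered single-cell table of hepatic CD45+ immune cells. Liver cells were captured in microwells (BD Rhapsody) and read as unique molecules of mRNA (UMIs) together with 49 antibodies that carry DNA tags. Of the 2 libraries, one joined liver cells of dnTGFβRII mice with those of IFN-γ ARE-Del-/- mice. The other joined those of P40-/-IL-2Ra-/- and wild type mice. The deposited metadata name 4647 cells of the former as TG and 7282 cells of the latter as WT, and only those are compared. TG (dnTGFβRII) mice express, from the mouse CD4 promoter, a dominant negative form of the human type II receptor of TGF-β, a model of primary biliary cholangitis in which the transgene acts in T cells. WT mice are plain C57BL/6, the strain of all groups, and all were aged 10 weeks per the labels, while the study's methods give a somewhat younger age. Each genotype is 1 library, so values are given with 95% intervals of counting error only (exact Poisson for levels, exact binomial for shares and ratios), no test between genotypes was made, and genotype and library cannot be told apart.

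B cells recognise antigen through a membrane immunoglobulin whose signal is carried by the Cd79a and Cd79b chains. Pax5 and Ebf1 are transcription factors that set and hold the B lineage programme, and Ms4a1 encodes CD20, a surface protein of B cells. Vpreb3 and Cd24a mark less mature B cells, whereas Fcer2a (CD23, the low-affinity IgE receptor) and Cr2 (CD21, a complement receptor) are gained as B cells mature in follicles. On GRCm38 (GENCODE M21) the genes lie at chr7:24897381-24902197 (Cd79a), chr11:106311341-106314762 (Cd79b), chr19:11249675-11266241 (Ms4a1), chr8:3681737-3694175 (Fcer2a), chr1:195136811-195176716 (Cr2), chr10:75943057-75949657 (Vpreb3), chr10:43578284-43584265 (Cd24a), chr4:44524757-44710487 (Pax5) and chr11:44617317-45008091 (Ebf1). Annotated genes overlap the span of Ms4a1, Vpreb3, Pax5 and Ebf1, and whether the counting used strand is not given in the sources used here.

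Promoter windows from RefSeq (GRCm38.p6) matched 6 of the 9 genes, with 9 windows in all, and Cd79b, Ms4a1 and Cd24a had no entry. The 250 bases before each start were searched on both strands for CCCNNGGG (a core bound by Ebf1), ATTTGCAT (the octamer bound by Oct factors) and CAGGTG (an E box). Cd79a, Fcer2a and Cr2 held the E box, which 17.2% of all 32851 windows of that length held. Vpreb3 held the octamer, found in 1.60% of all windows, and none of the 6 genes held CCCNNGGG, found in 11.8%. Letters that match a motif are a description of the sequence and not a measured binding site. Only exact matches were counted, so a site that differs in a letter is left unmarked. A window with no match can therefore still hold a site for the factor. A few stretches are shown because Cd79a was kept in every B cell cluster described below while Cr2 and Vpreb3 were not. That of Cd79a ends where an annotated exon begins, before the RefSeq start, and that of Vpreb3 lies in an intron of a longer GENCODE transcript of the gene. Each runs 5′ to 3′ on the gene's strand, and has the matches on either strand in capitals.
Cd79a, chr7:24897247-24897380, plus strand: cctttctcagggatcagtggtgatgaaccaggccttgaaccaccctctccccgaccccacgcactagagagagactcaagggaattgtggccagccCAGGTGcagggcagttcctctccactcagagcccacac
Cr2, chr1:195176720-195176969, minus strand: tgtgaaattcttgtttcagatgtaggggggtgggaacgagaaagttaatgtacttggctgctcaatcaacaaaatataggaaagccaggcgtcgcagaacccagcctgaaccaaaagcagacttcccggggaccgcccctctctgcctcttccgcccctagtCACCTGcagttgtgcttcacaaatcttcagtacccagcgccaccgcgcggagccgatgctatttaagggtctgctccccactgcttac
Vpreb3, chr10:75948050-75948299, plus strand: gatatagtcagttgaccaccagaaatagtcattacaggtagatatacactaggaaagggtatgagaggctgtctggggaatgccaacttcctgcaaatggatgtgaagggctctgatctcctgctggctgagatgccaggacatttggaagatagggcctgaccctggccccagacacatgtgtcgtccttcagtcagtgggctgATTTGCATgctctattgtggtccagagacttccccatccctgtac
The E box of Cd79a began 154 bases and that of Cr2 88 bases before the RefSeq start, and the octamer of Vpreb3 began 45 bases before it.

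The metadata name 1261 TG cells and 1696 WT cells as B cells, 27.1% and 23.3% of the cells. Mature B cells (1068 TG, 1494 WT) are clusters 1, 17 and 29, and the cells named immature B (193 TG, 202 WT) are cluster 10. The TG cells held 18498477 UMIs in all and the WT cells 22216379. The median depth of mature B cells was 2923 UMIs in TG and 2044.5 in WT, and that of T and NKT cells was 3730 and 2787. Tgfbr2, the mouse gene of the receptor whose human form the transgene encodes, had 332 CPM (UMIs per 1e+06 UMIs of the summed cells) in TG and 161 in WT T and NKT cells, a log2 ratio of 1.05 (0.97 to 1.13), and 191 and 210 in B cells. The T and NKT set held 446 NKT cells of 2114 in TG and 2232 of 3979 in WT, so its makeup differed between genotypes. The cell index numbers of 36 TG and WT cells were shared. Cluster 17, 29 TG and 155 WT cells, held T cell genes (Cd3d, Cd3e, Cd3g, Trac, Trbc1 and Trbc2) at a summed 3416 and 4284 CPM, against 301 and 263 in cluster 1. Scrublet, a doublet caller, marked 22 of its TG and 110 of its WT cells as doublets, out of 24 and 111 such mature B cells. The TG over WT ratios of the 9 genes, the main antibodies and the gene lists in mature B cells are therefore also given for cluster 1 alone (1028 TG, 1329 WT). T cell gene UMIs were not confined to cluster 17, since 269 TG and 304 WT mature B cells held at least 2 of them, of which 28 and 151 were in cluster 17.

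Of the 9 genes, 8 lay almost wholly in B cells. The share of their UMIs that fell in cells named B ran from 90.2% (Vpreb3) to 96.8% (Fcer2a) in TG and from 92.5% (Cd79b) to 96.8% (Fcer2a) in WT. Cd24a was the exception, with 47.7% (45.8 to 49.6) in TG and 63.5% (61.9 to 65.1) in WT. The heat map of levels by cell type shows the same split.

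**Figure D1:**
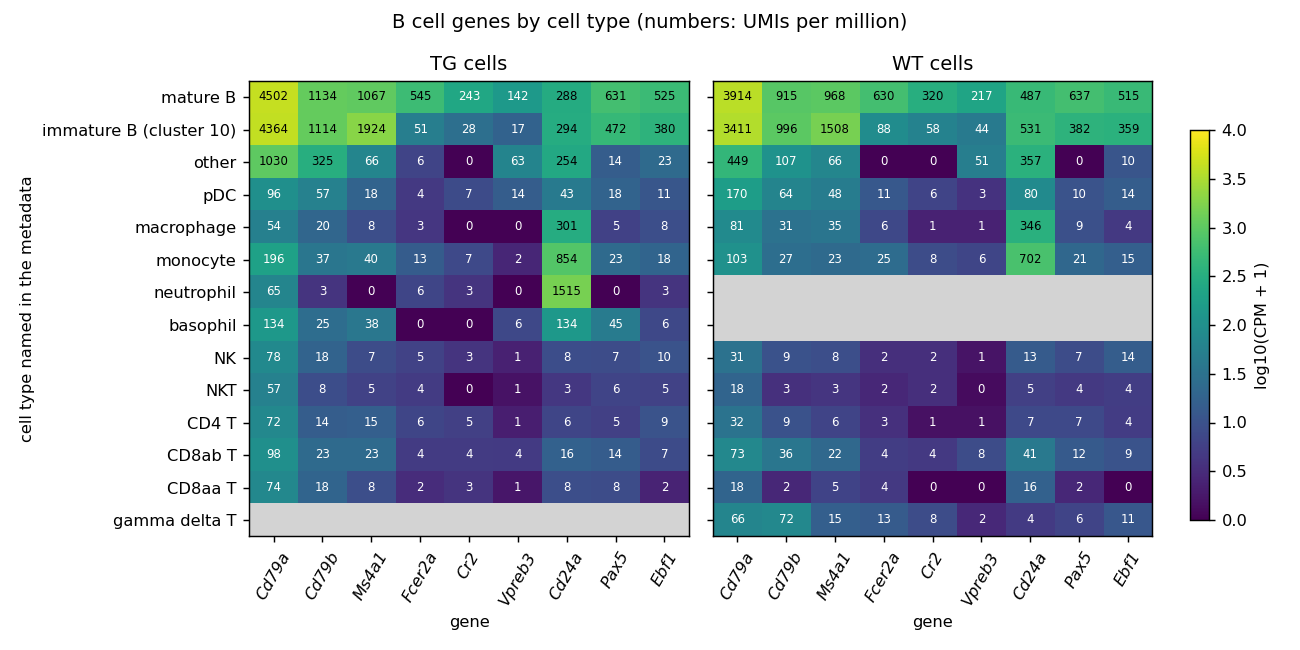
CPM of each gene, coloured on a log10(CPM + 1) scale, for each cell type of the metadata in TG and WT cells, with types of under 20 cells in grey. Both B cell rows are high for Cd79a (3411 to 4502 CPM), and Cd24a is also high in monocytes (854 and 702 CPM) and in TG neutrophils (1515 CPM).

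The signalling chain Cd79a was found in nearly every B cell. It had 4502 CPM (4431 to 4575) in TG and 3914 CPM (3849 to 3979) in WT mature B cells, with a UMI in 99.8% of the cells of each genotype. In T and NKT cells, which should lack it, it had 84.0 and 34.4 CPM, with a UMI in 22.5% of TG and 4.75% of WT cells. After each cell was thinned to 1000 UMIs, which left out no cell of these types, those shares were 6.34% (5.34 to 7.46) and 1.91% (1.51 to 2.38). Cd79a in T and NKT cells was thus higher in the TG library. It amounted to 1.87% of the mature B level of Cd79a in TG and 0.878% in WT.

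For the other genes the level in T and NKT cells was between 0.715% (Fcer2a) and 4.07% (Cd24a) of that in mature B cells in TG, and between 0.417% and 3.00% for the same genes in WT. At 1000 UMIs per cell, mature B cells held a UMI of Cd79b in 68.3% (TG) and 61.1% (WT), against 1.84% and 0.905% of T and NKT cells. CD20 gene Ms4a1 was seen in 58.8% and 58.3% of mature B cells, and in 1.32% and 0.578% of T and NKT cells. All of the 9 genes stood far above the T cell background in mature B cells. The transcription factor genes were seen at like rates in both genotypes, Pax5 in 45.8% and 45.0% and Ebf1 in 38.5% and 38.0% of mature B cells. Of the maturation genes, Fcer2a was seen in 37.0% (34.1 to 39.96) of TG and 43.2% (40.6 to 45.7) of WT cells. Cr2 was in 21.5% (19.1 to 24.1) and 23.0% (20.9 to 25.2). Vpreb3 was in 11.6% (9.75 to 13.7) and 18.9% (16.9 to 20.95), and Cd24a in 22.7% (20.2 to 25.3) and 35.9% (33.5 to 38.4). In T and NKT cells none of these 4 genes passed 0.899% in either genotype. Without thinning, Fcer2a was in 68.3% and 66.9%, Cr2 in 39.2% and 38.8%, Vpreb3 in 27.6% and 33.9%, and Cd24a in 49.2% and 56.8% of mature B cells, which were deeper in TG.

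Outside B cells Cd24a, which encodes a small glycoprotein on the surface of many immature and myeloid cells, was highest in neutrophils. It had 1515 CPM (1386 to 1652) in the 54 TG neutrophils, and the 17 WT neutrophils held 108 UMIs. Monocytes followed, with 854 CPM (782 to 932) in TG and 702 CPM (632 to 778) in WT. Macrophages differed by cluster. Cluster 15 (89 TG and 158 WT cells) had 115 and 88.3 CPM, below the 288 and 487 CPM of mature B cells, whereas cluster 22 (20 TG and 80 WT cells) had 783 and 668 CPM. The CD24 antibody was also higher on neutrophils and monocytes than on mature B cells, but neutrophils did not stand above monocytes. Its median centred log ratio (the natural log of 1 plus the count divided by the geometric average of the antibodies on that cell) was 1.75 on TG neutrophils, 1.88 on TG and 1.96 on WT monocytes, and 0.540 on TG and 1.02 on WT mature B cells.

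Cd79b was found beyond its mature B ratio to Cd79a in several other WT cell types, but not in TG T and NKT cells. In WT gamma delta T cells it had 38 UMIs, in 14.6% (9.91 to 20.4) of 192 cells, while Cd79a had 35 UMIs in 5.21% (2.53 to 9.37), of which 68.6% lay in 3 cells. In WT pDC, the plasmacytoid dendritic cells, Cd79b was in 17.8% (13.0 to 23.5) and Cd79a in 8.68% (5.30 to 13.2) of 219 cells. WT CD8ab T cells held 111 Cd79b and 224 Cd79a UMIs, in 5.98% and 5.74% of cells. WT macrophages held 43 and 114, each in 8.05% of cells. WT NKT cells stood the other way round, with Cd79b in 0.672% and Cd79a in 4.39% of 2232 cells. In mature B cells there were 23.4 Cd79b UMIs for every 100 of Cd79a in WT and 25.2 in TG. In T and NKT cells there were 35.2 in WT and 22.4 in TG. TG CD8ab T cells held 124 Cd79b and 517 Cd79a UMIs. The TG library held 17 gamma delta T cells with 2 UMIs of either gene. In its 46 pDC Cd79b had 16 UMIs, in 19.6% of cells, and Cd79a 27 UMIs, in 34.8%.

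Cluster 26, named only "other" by the metadata, led with Jchain, the joining chain of secreted IgM and IgA, at 28850 CPM in TG, and held Xbp1 at 1828, Sdc1 at 185 and Prdm1 at 162 CPM. From these markers it was plasma cell-like (32 TG and 14 WT cells). The receptor chains were still present there, Cd79a at 1197 CPM (1076 to 1328) and Cd79b at 381 CPM (314 to 458) in TG, with 87 and 21 UMIs in WT. Pax5, Ebf1, Fcer2a and Cr2 were scarce. Pax5 had 4 UMIs in TG and 0 in WT, Ebf1 8 and 2, Fcer2a 2 and 0, and Cr2 0 in both, which allows up to 3 counts in each, and the 23 TG UMIs of Ms4a1 lay in 3 cells and the 11 of WT in 5. Vpreb3 had 20 UMIs in 9 TG cells, 55% of them in 3 cells, and 10 in 5 WT cells, at 67.4 CPM (41.2 to 104) in TG. Cd24a had 81 UMIs in 20 TG cells, 43.2% of them in 3 cells, and 49 UMIs in 8 WT cells. Its TG level was 273 CPM (217 to 340), beside 288 CPM in TG mature B cells. The median depth was 9091.5 UMIs in TG cluster 26 and 2923 in TG mature B cells.

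Cluster 10, the cells named immature B, was compared with mature B cells within each library. The cells were clustered on these genes, so the differences describe the clusters and are not tested. In both genotypes the receptor chains differed little, Ms4a1 was higher, and Fcer2a, Cr2 and Vpreb3 were far lower in cluster 10. Cd79a had 4364 CPM in TG and 3411 CPM in WT, log2 ratios to mature B cells of -0.05 (-0.09 to 0.00) and -0.20 (-0.25 to -0.14). Cd79b had 1114 and 996 CPM, with ratios of -0.03 and 0.12. Ms4a1 had 1924 and 1508 CPM, against 1067 and 968 in mature B cells, or 0.85 (0.78 to 0.93) and 0.64 (0.55 to 0.73) on the log2 scale.

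The genes of follicular maturation separated the clusters most. Fcer2a had 62 UMIs in TG and 89 in WT cluster 10, or 50.7 and 87.5 CPM against 545 and 630 in mature B cells, log2 ratios of -3.43 (-3.81 to -3.06) and -2.85 (-3.17 to -2.54). Cr2 had 34 and 59 UMIs, with ratios of -3.13 (-3.67 to -2.63) and -2.46 (-2.86 to -2.08). Vpreb3, the gene of an immature stage, had 21 UMIs in TG, 66.7% of them in 3 cells, and 45 in WT, with ratios of -3.04 (-3.75 to -2.41) and -2.29 (-2.76 to -1.86). Cd24a, the other such gene, was near level in both, at 0.03 (-0.15 to 0.21) and 0.12 (-0.02 to 0.26). Pax5 and Ebf1 were lower in cluster 10 by smaller steps, -0.42 and -0.47 in TG and -0.73 and -0.52 in WT.

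**Figure D2:**
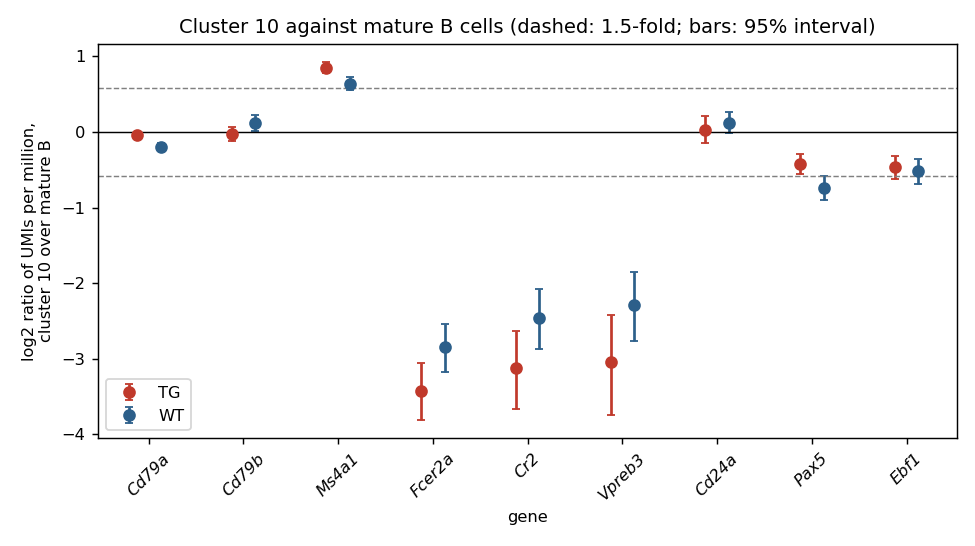
Log2 ratio of CPM of cluster 10 over mature B cells for each gene in TG and WT, with 95% counting intervals and dashed lines at 1.5-fold. Fcer2a, Cr2 and Vpreb3 sit between -3.43 and -2.29 in both genotypes, while Ms4a1 is the 1 gene above the upper line, which it does not reach in WT against cluster 1 alone (0.48).

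At 1.5-fold, 1 gene was higher and 3 were lower in TG, and 1 was higher and 4 were lower in WT. Among all genes with at least 10 UMIs, 14.4% were that much higher and 18.4% lower in TG, and 14% higher and 21.3% lower in WT. The median over the 9 genes was -0.42 in TG and -0.52 in WT, against -0.05 and -0.09 over all genes. Set against cluster 1 alone, the TG counts were the same, while in WT Ms4a1 was at 0.48 and no longer past 1.5-fold and Ebf1 was at -0.70 and past it. In WT Cd79a was then at -0.38, Cd79b at -0.057, Cd24a at -0.029 and Pax5 at -0.94.

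The label immature B went against 4 of the 6 measured genes listed for that stage, while Cd24a was near level, as given above. Of 12 genes of immature and progenitor B cells in a list, 6 had at least 10 UMIs in each genotype, and 4 were lower and 0 higher in cluster 10 than in mature B cells in both. Cd93, a receptor of immature B cells, had 2 UMIs in TG and 1 in WT cluster 10, and Sox4 0 and 12. Both were scarce in cluster 1 as well, Cd93 at 6.06 and 12.0 CPM and Sox4 at 16.9 and 36.0 CPM in TG and WT. Of 11 genes of marginal zone and B-1 cells, 10 were measured, of which 8 were higher in TG, and 7 higher and 1 lower in WT, with medians of 2.24 and 2.36. Of all genes 14.4% were higher in TG and 14% in WT. Among the leading genes of cluster 10 was Zbtb32, a transcriptional repressor, at 268 and 191 CPM against 2.08 and 2.505 in mature B cells, and Bhlhe41, a transcription factor, at 125 and 156 against 13.1 and 19.2 CPM. These cells are called cluster 10 here.

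Antibodies read on the same cells also set cluster 10 apart. The median centred log ratio of CD23, the product of Fcer2a, was 0.474 in TG and 0.498 in WT cluster 10, close to the 0.340 and 0.346 of T and NKT cells, and 3.62 and 2.59 on mature B cells. IgD was 1.48 and 1.94 against 4.70 and 4.35 on mature B cells, and CD45R 1.89 and 1.59 against 3.87 and 3.65. IgM was higher on cluster 10, at 5.50 and 4.38 against 4.18 and 3.95. CD43, a marker that follicular B cells lack, was 0.634 and 1.40 on cluster 10 and 0.283 and 0.484 on mature B cells. CD24, which is high on immature B cells, was also higher on cluster 10, at 0.676 and 1.31 against 0.540 and 1.02, but as a share of antibody counts it was lower there in WT, at 1.148% against 1.541%. RNA and antibody gave one order for Fcer2a, low on cluster 10 and high on mature B cells.

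Between genotypes, mature B cells of TG mice had less RNA of Cd24a, Vpreb3, Cr2 and Fcer2a and slightly more of Cd79a and Cd79b than those of WT mice. Ms4a1 was slightly higher in all TG mature B cells but level in cluster 1 alone. Cd24a had 966 UMIs in TG and 1750 in WT, or 288 CPM (270 to 306) and 487 CPM (465 to 510), a log2 ratio of -0.76 (-0.88 to -0.65). Vpreb3 had 476 and 779 UMIs, or 142 CPM (129 to 155) and 217 CPM (202 to 233), a ratio of -0.61 (-0.78 to -0.45). The intervals of the genotypes did not overlap for either of the genes of less mature cells.

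Both genes of follicular maturation were lower in TG by less than 1.5-fold. Cr2 had 243 CPM (227 to 260) in TG and 320 CPM (301 to 339) in WT, a log2 ratio of -0.40 (-0.53 to -0.26). At 1000 UMIs per cell the ratio of Cr2 was -0.11. Fcer2a had 545 CPM (520 to 571) and 630 CPM (604 to 657), a ratio of -0.21 (-0.30 to -0.12). Thinned in the same way, Fcer2a was at -0.32, and what moved Cr2 was not tested.

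The lineage genes differed little. Pax5 had 631 CPM in TG and 637 in WT, a ratio of -0.01 (-0.10 to 0.07), and Ebf1 525 and 515 CPM, a ratio of 0.03 (-0.07 to 0.12). The receptor and CD20 genes were higher in TG, Cd79a with a ratio of 0.20 (0.17 to 0.24), Cd79b with 0.31 (0.24 to 0.38) and Ms4a1 with 0.14 (0.07 to 0.21). In cluster 1 alone these ratios were 0.07, 0.17 and 0.02.

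**Figure D3:**
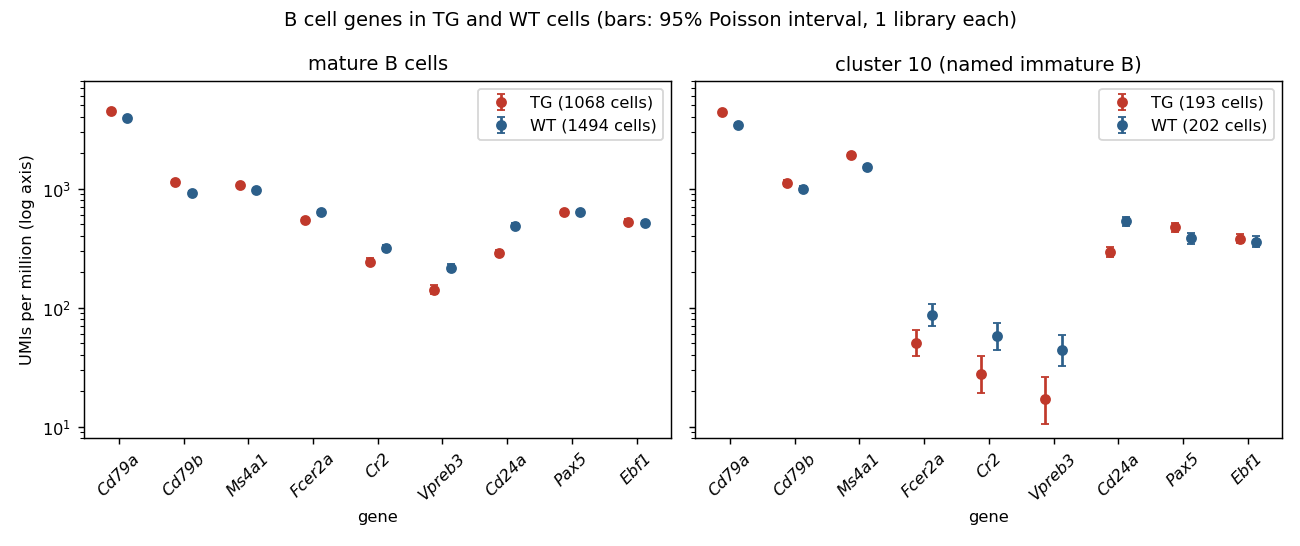
CPM (log axis) of each gene in TG and WT mature B cells and in cluster 10, with 95% Poisson intervals, each genotype 1 library. In both panels TG lies below WT for Fcer2a, Cr2, Vpreb3 and Cd24a, and at or above it for Cd79a, Cd79b and Ms4a1.

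Past 1.5-fold, 2 of the 9 genes were lower and 0 higher in TG mature B cells, against 9.71% lower and 7.87% higher among all 10726 genes with at least 10 UMIs. Their median log2 ratio was -0.01, against -0.05 over all genes. In cluster 1 alone, which leaves out cluster 17, the differences of the maturation genes were larger and those of the receptor genes smaller. Cd24a was at -0.87 (-0.99 to -0.76), Vpreb3 at -0.76 (-0.94 to -0.59), Cr2 at -0.47 (-0.60 to -0.33) and Fcer2a at -0.36 (-0.45 to -0.27), while Cd79a was at 0.07, Cd79b at 0.17 and Ms4a1 at 0.02 (-0.05 to 0.09). Pax5 was at -0.18 (-0.27 to -0.09) and Ebf1 at -0.11 (-0.20 to -0.01) there, where all mature B cells gave values near 0. Most of the mature B cells marked as doublets lay in cluster 17, and the median without that cluster is given with the other settings below.

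**Figure D4:**
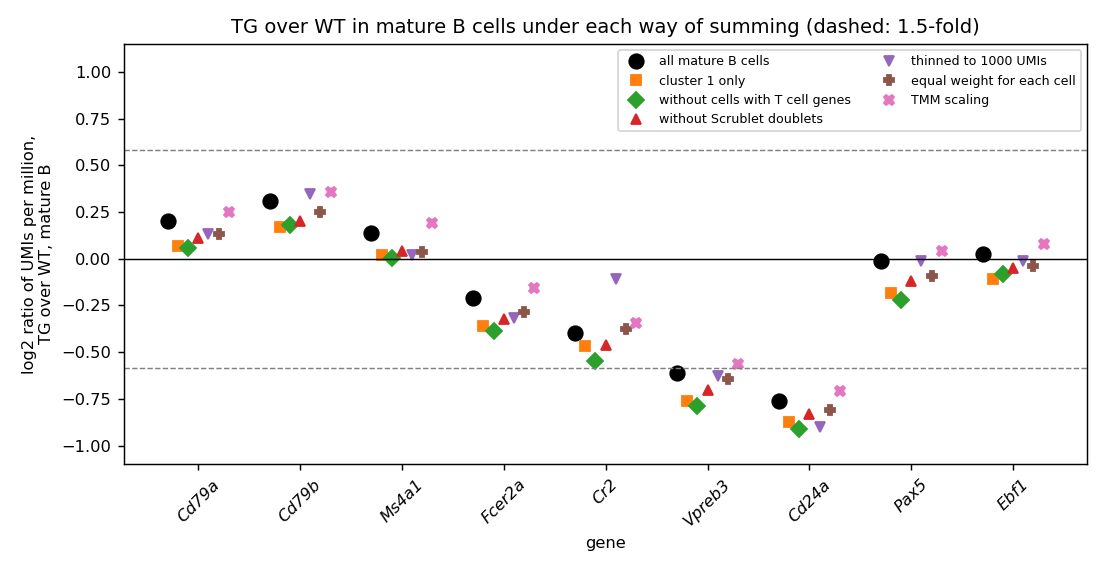
Log2 ratio of CPM, TG over WT, in mature B cells for each gene under several ways of choosing, weighting or scaling the cells, with dashed lines at 1.5-fold. Cd24a stays below the lower line under every setting drawn, Vpreb3 lies just above it with TMM scaling, and Fcer2a and Cr2 stay between the line and 0.

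In cluster 10 the same 4 genes were lower in TG, on fewer UMIs. Cd24a had 359 UMIs in TG and 540 in WT, a log2 ratio of -0.85 (-1.05 to -0.66). Vpreb3, Cr2 and Fcer2a were at -1.36 (-2.19 to -0.59), -1.06 (-1.71 to -0.43) and -0.79 (-1.28 to -0.30), with 21, 34 and 62 UMIs in TG. Thinning each cell to 1000 UMIs gave -2.52, -1.81 and -0.03. These thinned ratios rest on few cells, with Vpreb3 in 1 TG and 5 WT cells, Cr2 in 3 and 7, and Fcer2a in 13 and 12. At least 2 T cell gene UMIs were held by 86 TG and 53 WT cells of the cluster. Without those cells Vpreb3 was at -2.20, Cd24a at -1.11, Cd79a at 0.46 and Pax5 at 0.12. This cut is a fixed count that deeper cells reach more readily, and the median depth was 5965 UMIs in TG and 4426 in WT. The summed T cell gene level of the cluster was 317 CPM in TG and 485 in WT. With all cells of the cluster, Cd79a was at 0.36 (0.29 to 0.42), Ms4a1 at 0.35 and Pax5 at 0.30 (0.12 to 0.49). Past 1.5-fold, 4 genes were lower and 0 higher, against 12.6% lower and 12% higher of 9294 genes.

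The antibodies of Fcer2a and Cd24a did not both follow their RNA between genotypes. CD23 was higher on TG than on WT mature B cells, with a median centred log ratio of 3.62 (quartiles 3.10 and 4.01) against 2.59 (2.00 and 3.05), although Fcer2a RNA was lower in TG. As a share of all antibody counts of these cells, CD23 made up 10.8% in TG and 4.81% in WT. In cluster 1 its medians were 3.63 and 2.66. On T and NKT cells it was alike, at 0.340 and 0.346.

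Within each genotype CD23 was higher on cells with a UMI of its gene. Among mature B cells thinned to 1000 UMIs, the 395 TG cells with a Fcer2a UMI had a median of 3.76 and the 673 without one 3.51. In WT the medians were 2.74 on 645 cells and 2.42 on 849. WT cells with a Fcer2a UMI thus had less CD23 signal than TG cells without one.

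CD24 was lower on TG mature B cells, as was Cd24a RNA, at 0.540 (0.297 and 0.822) against 1.02 (0.700 and 1.48) in WT, and in cluster 1 at 0.540 against 1.04. The same antibody was also lower on TG T and NKT cells, at 0.135 against 0.440, where Cd24a RNA had 11.7 and 14.6 CPM. That set held 446 NKT cells of 2114 in TG and 2232 of 3979 in WT, so its makeup differed as well. On monocytes the antibody was at 1.88 and 1.96. The part of the antibody background in the B cell difference was not tested. Cells with and without a Cd24a UMI differed little in CD24, at 0.584 and 0.529 in TG and 1.07 and 0.990 in WT.

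**Figure D5:**
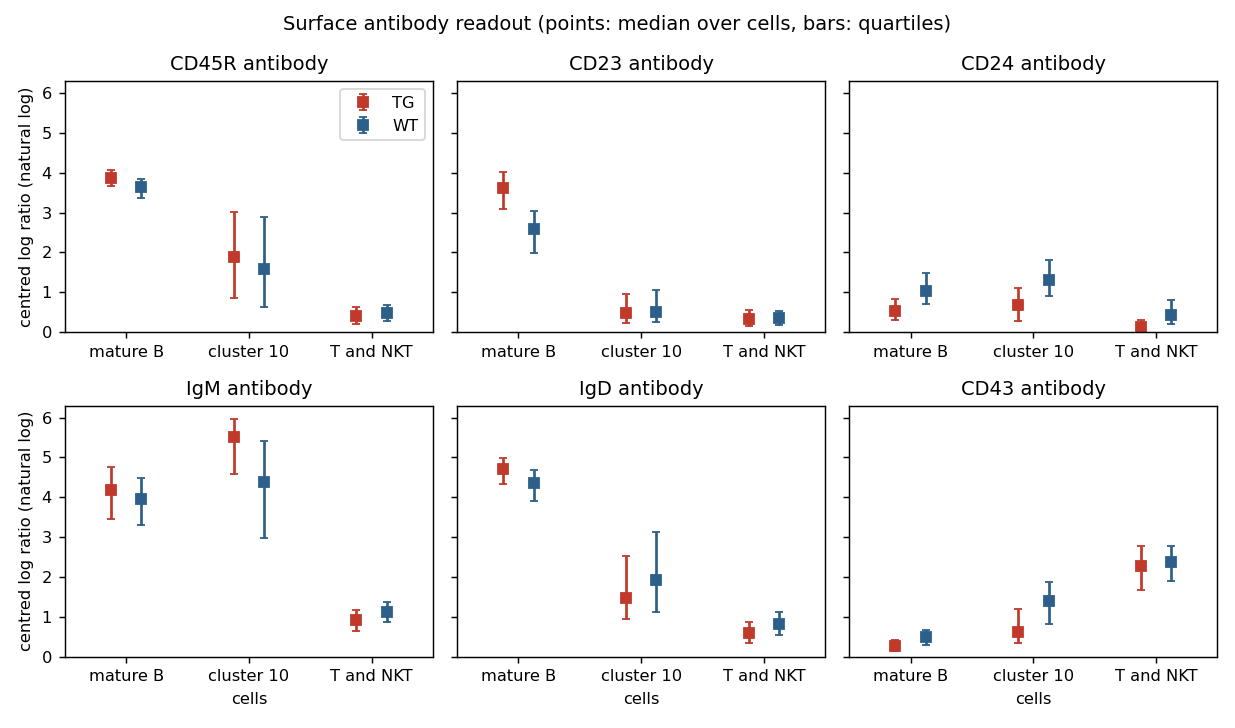
Centred log ratio (natural log) of 6 antibodies on mature B cells, cluster 10 and T and NKT cells of TG and WT mice, as the median over cells with quartiles. CD23 is high only on mature B cells in this plot, at 3.62 in TG and 2.59 in WT, and CD24 is lower in TG in all 3 cell sets.

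Other genes of the pathways were read beside the 9. The counts below stand against 7.87% higher and 9.71% lower among all genes in mature B cells, and 9.13% higher and 8.40% lower among the 10432 measured in cluster 1. Of 18 genes of B cell receptor signalling and coreceptors, 0 passed 1.5-fold between TG and WT mature B cells, with a median of 0.09. In cluster 1 the count was again 0 and the median was of the other sign, at -0.04, with Fcgr2b at -0.29, Cd72 at -0.24, Cd37 at 0.19 and Dok3 at 0.32. Their values in all mature B cells ran from -0.17 for Fcgr2b, the inhibitory Fc receptor, and -0.12 for Cd72, an inhibitory coreceptor, to 0.30 for Cd37 and 0.44 for Dok3, an adaptor. Of 12 B lineage transcription factors, 2 were lower and 0 higher, namely Lef1 at -2.68 (-3.42 to -2.01), which T cells also use, and Foxo1 at -0.62 (-0.75 to -0.49). Tcf3 was highest at 0.53, and Irf8 was at 0.25 (0.11 in cluster 1). In cluster 1 Lef1 had 11 UMIs in TG and 32 in WT, and Foxo1 was at -0.67.

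Of 12 genes of follicular maturation, 2 were higher and 0 lower in TG, with a median of 0.25. These were Klf2, a factor of B and T cell trafficking, at 0.77 (0.70 to 0.83) and Icosl, the ligand of the T cell costimulator ICOS, at 0.80 (0.66 to 0.95). In cluster 1 the same counts held with a lower median of 0.14, with Klf2 at 0.69 and Icosl at 0.67. In all mature B cells Tnfrsf13c, the BAFF receptor, was at -0.32 (-0.49 in cluster 1) and the chemokine receptor Ccr7 at -0.29. Fcer2a and Cr2 were lower in the same cells in which Ighd, the IgD heavy chain, was at 0.43 (0.32 in cluster 1).

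Of the 6 measured of 12 immature and progenitor genes, 5 were lower and 0 higher in TG, with a median of -0.85. Il7r, the IL-7 receptor that T cells also use, was at -1.97 and Sox4 at -1.096 (-1.58 to -0.63), and Chchd10, at -0.46, was the measured gene within 1.5-fold. The 6 T cell markers moved the same way in all mature B cells (5 lower, 0 higher) and not in cluster 1 alone (0 lower, 1 higher). Markers of red blood cells were lower in TG in both, 4 of the 4 measured, and any link to the immature genes was not tested. In cluster 1, 5 of the immature genes were again lower, with Il7r at -0.93 and Sox4 at -1.09. Of the progenitor genes of the list under the minimum of 10 UMIs, Dntt had 9 UMIs in TG and 0 in WT mature B cells, Vpreb1 7 and 2, and Erg 0 and 3. In cluster 1 Dntt and Vpreb1 each had 1 UMI in TG and 0 in WT. Of the 10 measured marginal zone and B-1 genes, 1 was higher, Plac8 at 0.85 (0.75 to 0.95), and 1 lower, Cd5, which T cells also express, at -2.86 on 9 TG and 70 WT UMIs. In cluster 1 Cd5 had 5 TG and 20 WT UMIs, and 1 gene of the list was higher, Plac8 at 0.78, and 2 were lower.

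Likeness of pattern was measured as Pearson's r of log2(CPM + 1) over 25 profiles of a cell type in a genotype, which share 2 libraries, as a description. Cd79b was most like Cd79a (0.954) and Ms4a1 like Cd79b (0.944). Fcer2a and Cr2 were most like each other (0.922). Pax5 was most like Ighd (0.926) and Vpreb3 like Gga2 (0.897), and among the 3 genes nearest to Ebf1 were Fcmr (0.948), the Fc receptor of IgM, and Scd1 (0.928). Cd24a alone had no B cell gene among its nearest, which were Pira2 (0.947), Ckap4 (0.914) and Apobec1 (0.880).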

How the data were processed

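Liver CD45+ cells of C57BL/6 mice were captured as 2 pools, with an age of 10 weeks per the labels and a younger one in the methods. Per the labels and methods, the authors aligned reads to mm10 with STAR in the BD Rhapsody pipeline, filtered to 11929 cells, integrated the libraries and clustered them with Seurat. The deposited RNA and antibody values used are raw molecule counts per gene or antibody and cell. The deposited antibody centred log ratios are on a natural log scale and could be recomputed from the counts. The authors' normalized RNA values were not used, and no columns of fold changes or p-values were used. Cell types, clusters and genotype names were the authors'.

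Counts were summed over cells of a type and genotype and divided by their total (CPM). Ratios have exact conditional binomial intervals, levels exact Poisson intervals and shares Clopper-Pearson intervals, all at 95% and covering counting error only. Genes needed 10 UMIs over both profiles, and 1.5-fold counted as past. All 9 members passed. No test was run with 1 library per genotype, and the ratio step was tested on simulated data. Doublets were not removed (Scrublet in scanpy 1.11.5 called 0.839% of TG and 3.31% of WT cells) and were left out as an alternative, as were cells with at least 2 T cell gene UMIs. TMM came from edgeR 4.0.16, thinning used 1000 UMIs per cell, and Python 3.11.15, numpy 2.4.6 and scipy 1.17.1 were used.

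The members and lists were chosen with earlier results of these data known. All 9 members are named. Of each list at most 4 genes were to be named, the highest and lowest in TG over WT among those with at least 100 UMIs. Ighd, Cd5, Cd93, Dntt, Vpreb1, Erg, Zbtb32, the globin genes and the markers of cluster 26 were named after their values were seen. Likeness used genes with at least 100 UMIs and profiles of at least 20 cells. A gene outside the 9 members, and the antibody to its product, are not reported here.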

Additional observations from a re-analysis of the deposited data

Results flagged for a closer look

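The libraries also held 5379 cells in the TG pool and 16829 in the WT pool with no genotype name, which enter no comparison. Relative to Cd79a, the genes Cd79b, Cd24a and Ebf1 were higher in the unnamed cells of the WT pool than in WT cells. Ms4a1, at 29.3 against 28.5, had intervals that overlapped, and Fcer2a, Cr2, Vpreb3 and Pax5 were not higher. The share of all genes that differ in this way was not counted. All values are scaled to Cd79a, so a shift of that gene would move each of them. Cd79b had 29.4 UMIs per 100 Cd79a UMIs (28.5 to 30.4), against 25.1 in WT cells. Cd24a had 49.1 against 19.5, and Ebf1 had 13.9 (13.3 to 14.5) against 12.7. These cells have no cell type name, so Cd24a counts from myeloid cells cannot be separated from those of B cells.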

How the results depend on the processing

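The number of genes past 1.5-fold between TG and WT mature B cells was 2, and it was 1 with TMM scaling and 1 with totals that left out ribosomal, mitochondrial and immunoglobulin genes. Vpreb3 was the gene that crossed the line. The median over the 9 genes, -0.01, moved to -0.22 without cells that held T cell genes, to -0.12 without Scrublet doublets, to -0.18 in cluster 1 only and to -0.18 without cluster 17, an alternative chosen after seeing the data. The WT ratio of Cd79b in cluster 10 over mature B cells, 0.12, reversed to -0.018, -0.057 and -0.051 without cells that held T cell genes, in cluster 1 and without cluster 17. Cr2 between TG and WT mature B cells was at -0.11 when cells were thinned, against -0.40. With no minimum count the share of genes past 1.5-fold in that comparison was 13.0% higher and 15.8% lower. The number past 1.5-fold in the other 3 comparisons stayed within 1.5 times under every setting run, but in cluster 10 over mature B cells in WT the genes changed in cluster 1 alone (Ms4a1 0.48, Ebf1 -0.70, median -0.70). As shares of antibody counts, the TG against WT direction reversed for CD45R on cluster 10 (a log2 ratio of -0.083) and CD23 on cluster 10 (0.13). The cause of these changes was not tested. No paired analysis was possible because each genotype has 1 library and no test was made. Leaving out a replicate was not possible for the same reason.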

Other observations

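Cells with no genotype name stood nearer to the named cells of their own pool for Vpreb3, Fcer2a, Cr2 and Cd24a, and also for Pax5 and Ebf1. Per 100 Cd79a UMIs, Vpreb3 had 2.51 in TG cells and 2.15 (1.96 to 2.36) in the other cells of that pool, against 4.71 in WT cells and 3.67 (3.38 to 3.99) in the other cells of the second pool. Fcer2a had 8.89 and 8.19 in the first pool and 13.1 and 12.4 in the second, and Cr2 had 4.06 and 4.03 against 6.80 and 5.90. Cd24a had 12.6 and 14.7 in the first pool and 19.5 and 49.1 in the second, where the unnamed cells were far from both genotypes. Pax5 had 12.9 and 12.6 in the first pool and 15.1 and 15.0 in the second, and Ebf1 10.6 and 10.4 against 12.7 and 13.9. Pax5 was level by CPM between TG and WT mature B cells, where Cd79a was higher in TG, so scaling to Cd79a enters these values. The genotypes of the unnamed cells are not given in the files used here.

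Within mature B cells at 1000 UMIs, Cr2 was higher in cells that held a Fcer2a UMI in both genotypes, with 357 against 250 UMIs per 1000 cells in TG, a log2 ratio of 0.52 (0.18 to 0.85), and 363 against 273 in WT, 0.41 (0.14 to 0.68). Vpreb3 in the same split was lower in TG, 101 against 175 UMIs per 1000 cells (-0.79, -1.35 to -0.26), and not so in WT, 254 against 208 (0.29, -0.03 to 0.60). Ebf1 was higher in cells with a Vpreb3 UMI, at 0.58 (0.25 to 0.90) in TG and 0.30 (0.05 to 0.54) in WT. The difference of these splits between genotypes was not tested.

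WT mature B cells held 147 UMIs of Hba-a1, 132 of Hba-a2, 54 of Hbb-bs and 24 of Hbb-bt, the globin genes of red blood cells. TG mature B cells held 4 of Hbb-bs and 0 of the other three.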
